A study of Caenorhabditis elegans with 16 samples.

Results

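The kinetochore and centromere transcripts described here are those of 10 genes of Caenorhabditis elegans, chosen by name (hcp-3, hcp-4, knl-2, knl-1, knl-3, ndc-80, hcp-1, hcp-2, bub-1 and air-2) from the 46536 genes listed. All 10 were found in each of the 16 RNA-seq libraries, and all 10 passed the filter on low values, at levels far above it. The libraries came from germline tumors dissected from adults aged 1 day, raised for 48 h at 25 °C after bleach synchronization. Every group, controls included, carried the transgene ieSi64[gld-1p::tir1::mRuby], the altered gene lag-1(oz536oz537) and the alleles glp-1(ar202), gld-1(q485) and gld-2(q497) in the Bristol strain. LAG-1 binds DNA for the Notch pathway and turns its targets on. TIR1, here under the gld-1 promoter, is an auxin receptor from plants through which auxin has proteins with a degron destroyed. The 4 groups of 4 libraries had 1 mM auxin for 0 h (control), 2 h, 4 h or 48 h. A group with unaltered lag-1 and auxin is not among the samples, and LAG-1 protein was not measured in these data, so exposure to auxin and loss of LAG-1 cannot be told apart. Growth lasted as long as the longest exposure, so at 48 h the duration of auxin and the stage at which it began cannot be told apart either.

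The kinetochore is the protein assembly that links chromosomes to spindle microtubules at cell division. C. elegans chromosomes are holocentric, which means that the kinetochore forms along the whole chromosome instead of at a single point. HCP-3, the worm CENP-A, replaces histone H3 in centromeric nucleosomes. KNL-2 is needed to load it, and HCP-4, the worm CENP-C, builds on it. The KNL-1, MIS-12 and NDC-80 complexes form the KMN network, which binds microtubules. HCP-1 and HCP-2, related to CENP-F, and the checkpoint kinase BUB-1 sit on the outer face, and AIR-2, the worm Aurora B, corrects faulty attachments.

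The values are read counts scaled by library size (CPM), deposited as 2 tables. The first holds the 4 controls, 2 h libraries 1 and 2, and the 4 libraries at 48 h, and the second holds 2 h libraries 3 and 4 and the 4 libraries at 4 h. Comparisons were made within a table, so control and 4 h levels are given without a test between them. Library totals were 17760706 to 33888940 reads, and the 10 genes had 793 to 11995 reads each in a library, with a counting error of at most 3.55%. Among the 10 libraries of the first table, 3 stood apart, control libraries 1 and 3 and 48 h library 1. Their shares of ribosomal RNA were 53.3%, 51.7% and 44.9%, and those of the other 7 were 32.3% to 36.2%. Long transcripts were also low in these 3: on a median-centred log2 scale the longest length quintile of genes minus the shortest was -0.78, -0.64 and -0.48, and it was -0.018 to 0.40 for the other 7. Libraries of the second table held 37.8% to 44.7% ribosomal RNA, and this length difference was -0.11 to 0.092. All 8 germline markers were detected, with summed levels of 1329 to 2509 CPM in controls, 2474 to 2546 CPM at 2 h and 1770 to 2808 CPM at 48 h in the first table. The sums were 2027 to 2156 CPM at 2 h and 1755 to 2030 CPM at 4 h in the second. The 6 sperm markers summed to 0.604 to 1.55 CPM in controls, where 1 of them reached a mean of 1 CPM, and to at most 2.20 CPM in any library. Of these markers msp-3, msp-10 and msp-142 were at 0 in all libraries. The 6 somatic gonad markers, of which 3 reached a mean of 1 CPM, summed to 39.3 to 46.6 CPM in controls and 56.96 to 65.9 CPM at 48 h. The 5 oocyte markers, all detected, summed to 118.99 to 276.9 CPM in controls, 277.5 to 303 CPM at 2 h and 188 to 421 CPM at 48 h, and in the second table to 222 to 228 CPM at 2 h and 152 to 204 CPM at 4 h. The 5 muscle markers summed to 29.6 to 53.3 CPM in controls and 32.4 to 77.9 CPM at 48 h, and the 5 neuron markers to 38.2 to 40.5 CPM at 2 h and 27.1 to 37.3 CPM at 4 h in the second table. The part of these other cells in the results below was not tested. These tumors are bulk tissue, so fewer cells that express a gene and less RNA per cell cannot be told apart. As a check of the treatment, the Notch target lst-1 fell at 48 h, with a limma log2 fold change of -1.54 (SE 0.26, adjusted p = 0.00610). In the same comparison sygl-1, another Notch target, gave -2.17 ± 0.37 (limma adjusted p = 0.00696) and lag-1 itself 0.24 ± 0.28 (limma adjusted p = 0.546). At 2 h in the first table lst-1 averaged 18.1 CPM against 55.1 CPM in controls, and sygl-1 2.01 CPM against 15.3 CPM. The smallest limma adjusted p of these 3 genes at 2 h was 0.404. A lack of calls at 2 h therefore does not show a lack of change.

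Of the centromeric chromatin genes, hcp-3 (WBGene00001831, chromosome III, 9615306 to 9616470, minus strand in WBcel235, 1014 exonic bases) was the lowest of the 10 per length at 2 h, 48 h and 4 h. In controls 1 to 4 its level was 44.8, 58.8, 44.4 and 56.1 CPM. In 2 h libraries 1 and 2 it was 53.8 and 55.0 CPM, and at 48 h it was 45.2, 50.1, 49.5 and 52.4 CPM. Controls 1 and 3 were low and controls 2 and 4 high, and the 48 h libraries lay between them. Its second-table levels were 50.6 and 52.0 CPM at 2 h, and 40.3, 43.0, 42.9 and 42.4 CPM at 4 h. All 4 libraries at 4 h lay below both at 2 h. Its exons overlap those of F58A4.6 and of a piRNA on the other strand, and how the counting treated strand is not stated.

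cpar-1 (WBGene00010036, chromosome III, 9434057 to 9435100, plus strand, 897 exonic bases) is the paralog of hcp-3 and was much lower. Its levels were 6.21, 8.95, 7.25 and 8.72 CPM in controls and 11.54, 11.2, 13.6 and 11.8 CPM at 48 h, with no overlap. The 2 h libraries of the first table, at 10.2 CPM each, lay between these groups. Among the other 6 libraries cpar-1 was 8.32 and 8.47 CPM at 2 h, inside the range of 7.31 to 9.26 CPM at 4 h. The genes are close relatives, so the counting may not separate all of their reads.

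hcp-4 (WBGene00001832, chromosome I, 3862833 to 3865938, minus strand, 2704 exonic bases) was 95.4, 210.4, 111 and 201 CPM in controls. It was 181 and 212 CPM in 2 h libraries 1 and 2, and 127.6, 185, 199.6 and 198 CPM at 48 h. The 2 low controls are again libraries 1 and 3, and 48 h library 1 lies below the rest of its group. The second table gave 186 and 191 CPM at 2 h against 159, 170.4, 193 and 182 CPM at 4 h, and the groups overlap.

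knl-2 (WBGene00019432, chromosome I, 6460878 to 6464286, plus strand, 2937 exonic bases) followed the same order. Its controls were 97.6, 199, 108 and 189 CPM, its 2 h libraries 1 and 2 were 179 and 201 CPM, and its 48 h libraries were 152, 187, 199.7 and 197 CPM. Second-table values were 205 and 204 CPM at 2 h and 184, 202, 213 and 211 CPM at 4 h, and 4 h libraries lay on both sides of the 2 h pair. An exon of acdh-3 lies opposite to knl-2.

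**Figure D1:**
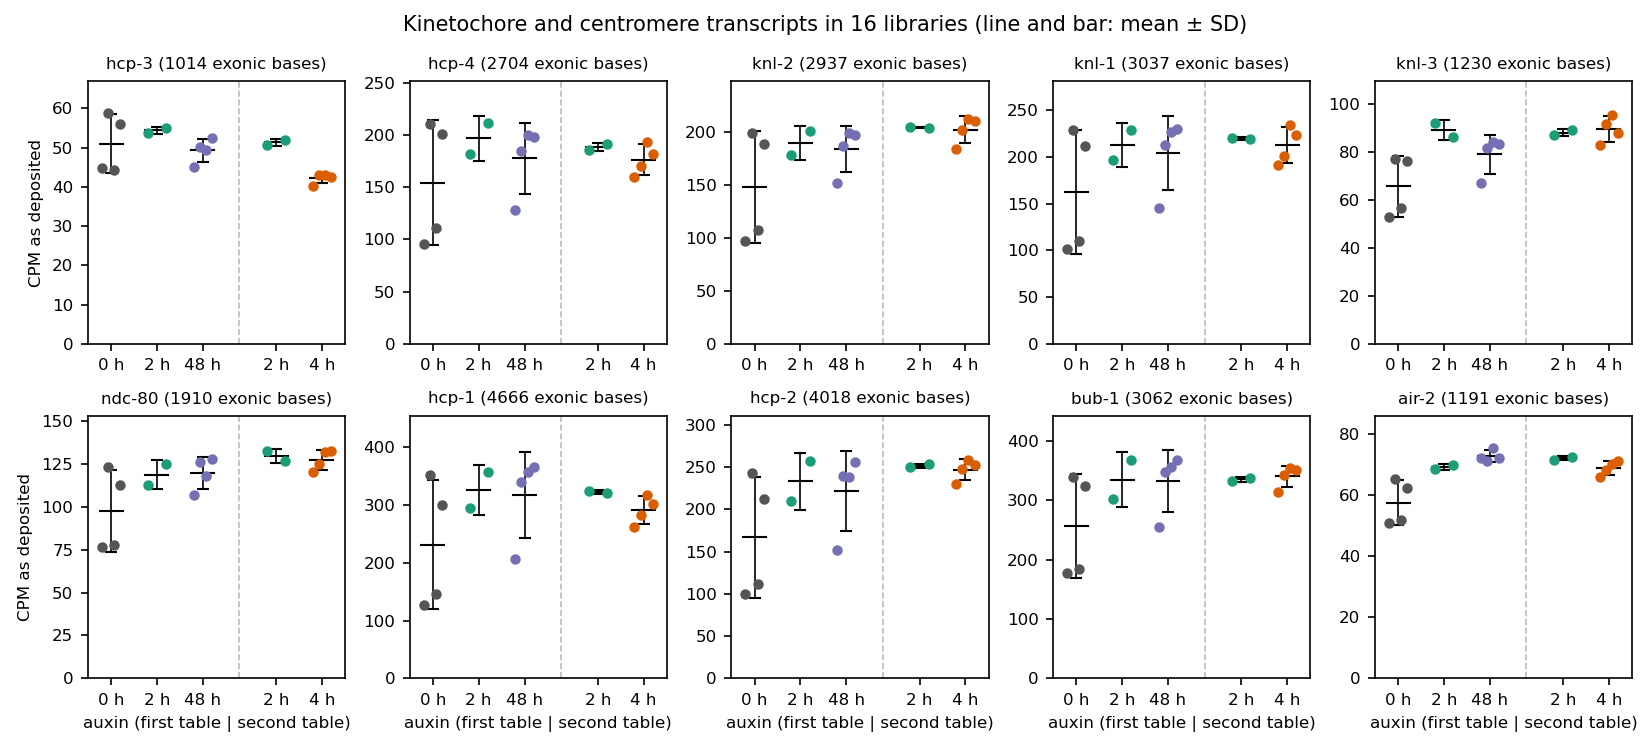
Deposited CPM of the 10 genes by hours of auxin (0 h is the control), 1 point per library, with mean and SD; the dashed line parts the first table (left) from the second (right). Controls fall into a high and a low pair, which is widest for long genes, and hcp-3 at 4 h (40.3 to 43.0 CPM) lies below both 2 h libraries of its table.

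In the KMN network, knl-1 (WBGene00002231, chromosome III, 8250632 to 8253943, plus strand, 3037 exonic bases) encodes the scaffold on which the network is built. Its controls were 102, 228, 110.1 and 211 CPM, 2 h libraries 1 and 2 were 196 and 229 CPM, and the 48 h libraries were 146, 213, 227 and 230.1 CPM. The groups overlap, since controls 2 and 4 reached the level of the treated libraries. Measured in the second table, knl-1 was 221 and 219 CPM at 2 h and 192, 201, 234 and 223 CPM at 4 h, which also overlap.

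knl-3 (WBGene00020392, chromosome V, 1869213 to 1870558, plus strand, 1230 exonic bases) encodes a subunit of the MIS-12 complex. It was 52.9, 77.3, 56.8 and 76.1 CPM in controls, 92.1 and 86.1 CPM in 2 h libraries 1 and 2, and 66.9, 81.8, 84.1 and 83.2 CPM at 48 h. Both 2 h libraries lay above every control and every 48 h library. Where 4 h was measured, knl-3 was 87.1 and 89.1 CPM at 2 h and 83.1, 91.8, 95.6 and 87.8 CPM at 4 h, and the groups overlap. Its exons overlap T10B5.3 and T10B5.4 on the other strand.

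ndc-80 (WBGene00003576, chromosome IV, 10086137 to 10088437, plus strand, 1910 exonic bases) encodes the microtubule-binding subunit for which its complex is named. Its level was 76.9, 123, 77.8 and 113 CPM in controls, 113 and 125 CPM in 2 h libraries 1 and 2, and 107, 126, 118 and 127.7 CPM at 48 h. The other table had ndc-80 at 132 and 126.5 CPM at 2 h, within the range of 120.3 to 132.4 CPM at 4 h. No pair of groups was apart. Part of ttr-39 lies on the strand opposite to it.

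Of the outer kinetochore genes, hcp-1 (WBGene00001829, chromosome V, 6594194 to 6599208, plus strand, 4666 exonic bases) is the longest of the 10. Its controls were 127.7, 352, 147 and 301 CPM, the widest range of any of these genes. In 2 h libraries 1 and 2 it was 295 and 357 CPM, and at 48 h it was 206, 341, 357 and 365 CPM. At 2 h and 4 h in the second table it was 325 and 321 CPM against 262, 283, 318 and 302 CPM, and all 4 h libraries were below the 2 h pair. Exonic bases of hcp-1 are shared with ZK1055.6 on the minus strand.

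hcp-2 (WBGene00001830, chromosome V, 9645859 to 9650211, plus strand, 4018 exonic bases) is the paralog of hcp-1. It was 100.3, 243, 112 and 212 CPM in controls, 209 and 257 CPM in 2 h libraries 1 and 2, and 152, 239.6, 238 and 256 CPM at 48 h. Of the second-table libraries, those at 2 h were at 250.0 and 253 CPM and those at 4 h at 229.7, 248, 258 and 252 CPM. Its groups overlapped in both tables.

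bub-1 (WBGene00000275, chromosome I, 7251941 to 7255223, plus strand, 3062 exonic bases) was 177, 340.2, 185 and 324 CPM in controls and 302 and 367 CPM in 2 h libraries 1 and 2. It was 255, 348, 356 and 369 CPM at 48 h. Levels in the second table were 333 and 338 CPM at 2 h and 315, 343, 354 and 351 CPM at 4 h. No pair of groups was apart, and controls 2 and 4 lay within the range of the treated libraries.

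air-2 (WBGene00000099, chromosome I, 5937195 to 5938881, plus strand, 1191 exonic bases) had the narrowest control range. It was 50.9, 65.2, 51.8 and 62.2 CPM in controls, 68.6 and 69.8 CPM in 2 h libraries 1 and 2, and 72.1, 71.1, 75.4 and 72.2 CPM at 48 h. These 3 groups did not overlap. Second-table air-2 was 71.5 and 72.5 CPM at 2 h and 65.7, 68.1, 70.3 and 71.2 CPM at 4 h, with all 4 h libraries just below the 2 h pair.

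Controls 1 and 3 were the 2 lowest controls for each of the 10 genes, and the spread within controls was wider for longer transcripts. Within controls the highest library was 1.28 times the lowest for air-2 and 2.75 times for hcp-1, against a median of 1.63 over 5025 genes of at least 10 CPM. Across the 10 genes this ratio went with log2 exonic length (Pearson r = 0.97, Spearman rho = 0.90, n = 10 genes that share the same libraries, a description). At 48 h it ran from 1.06 to 1.77 (Pearson r = 0.90) and at 4 h from 1.07 to 1.22 (Pearson r = 0.66). After the trend with length was removed from each library, the control ratio was 1.04 to 1.15 for the 10 genes (Pearson r = 0.040). The median was 1.19 over 5019 genes. That removal acts on length itself, so a weaker relation with length in controls follows from the method. On the same scale Pearson r was -0.63 at 48 h and -0.46 at 4 h. On the deposited scale the control ratio was largest for the long genes hcp-1 and hcp-2. The part of ribosomal RNA or of length in these differences was not tested.

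**Figure D2:**
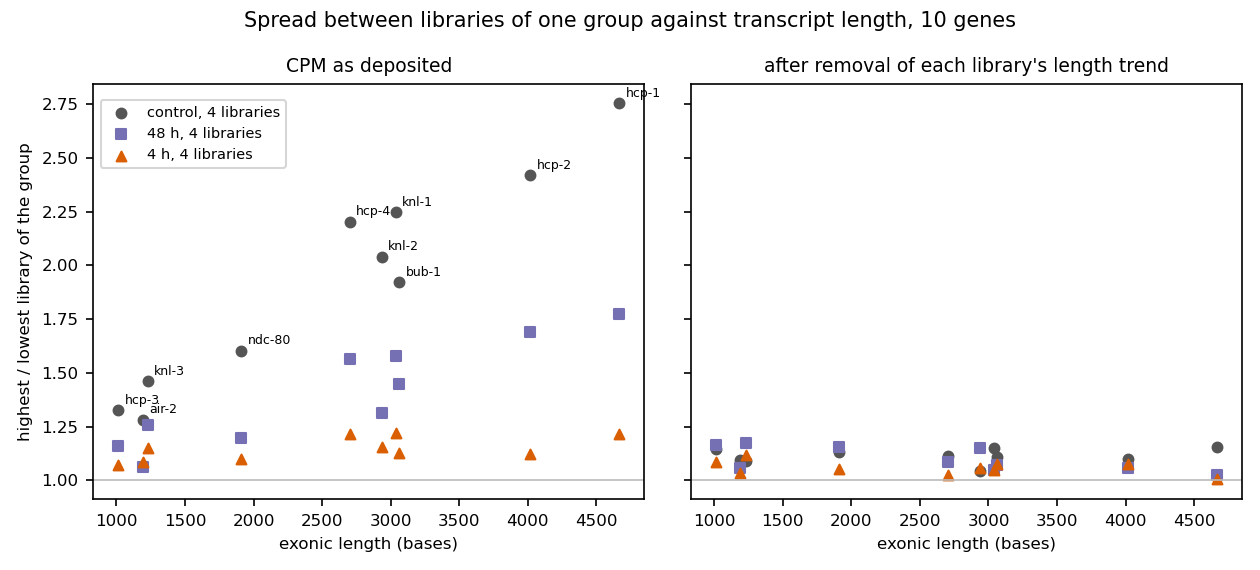
Highest over lowest library within each group of 4, against exonic length in bases, for the 10 genes; circles are controls, squares 48 h and triangles 4 h, on the deposited scale (left) and with each library's length trend removed (right). In controls the ratio runs from 1.28 for air-2 to 2.75 for hcp-1 on the left and from 1.04 to 1.15 on the right.

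Between 48 h and control, 0 of the 10 genes passed in limma, where 7.34% of the 7684 genes tested were called higher and 2.71% lower (2208 genes at an unadjusted p under 0.05). Of the 10, air-2 had an unadjusted p under 0.05. It averaged 72.7 ± 1.87 CPM at 48 h and 57.5 ± 7.26 CPM in controls (SD, n = 4 each). The log2 fold change was 0.34 (SE 0.12, adjusted p = 0.0898 in limma). It was also the 1 gene of the 10 whose 48 h libraries all lay above all controls, as did 14.9% of genes tested, while 3.67% lay wholly below. After median centring its 48 h libraries (64.2 to 75.4 CPM) overlapped the controls (57.96 to 73.3 CPM), its fold was 0.060 (limma adjusted p = 0.723), and 0 of the 10 genes lay wholly above, as did 6.61% of genes. With the length trend removed the air-2 groups were again apart, at 67.2 to 71.0 CPM at 48 h and 60.1 to 65.7 CPM in controls. It was not called on that scale, and the share of all genes apart there is not given. On the deposited scale the other 8 genes above 0 were hcp-1 (0.55), hcp-2 (0.48), bub-1 (0.42), knl-1 (0.39), knl-2 (0.37), ndc-80 (0.32), knl-3 (0.28) and hcp-4 (0.26), in log2, with limma adjusted p from 0.240 to 0.489. Their 95% intervals all held 0 and reached 1.29 for hcp-1. The median of the 10 was 0.36, and the median of all genes tested was 0.24, with 80.5% of them above 0. Most genes shared the direction of these folds, which also went with length (Pearson r = 0.80 with log2 exonic length, n = 10 genes). Without controls 1 and 3, 6 of these 9 genes turned to values below 0, from -0.23 for hcp-4 to -0.014 for bub-1. The exceptions were air-2, knl-3 and ndc-80. That setting kept 48 h library 1, which also stood apart, and gave a median of -0.068 over the 10 genes. With 48 h library 1 left out as well the median was 0.088, and 8 of the 10 genes were above 0.

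hcp-3 was the 1 gene of the 10 below 0 at 48 h, and its result depended on scaling. It averaged 49.3 ± 3.02 CPM, and controls averaged 51.0 ± 7.52 CPM (SD, n = 4 each). The log2 fold change was -0.040 (SE 0.13, adjusted p = 0.819 in limma). With each library centred on its median, its levels were 47.2, 45.8, 42.7 and 46.6 CPM at 48 h, below all of the controls at 64.5, 54.7, 57.6 and 52.3 CPM, as for 10.6% of genes. On that scale limma gave -0.32 (SE 0.080, adjusted p = 0.0289), and 7.14% of genes were called lower. With the length trend removed limma gave -0.22 (SE 0.064, adjusted p = 0.0367), with 11.6% of genes called lower. There the groups touch, since control 3 at 50.5 CPM lay just under 48 h library 4 at 50.6 CPM. On the recovered reads edgeR gave -0.31 (edgeR adjusted p = 0.0256; 6.45% of genes lower) and DESeq2 -0.31 (DESeq2 adjusted p = 0.00138; 8.97% lower). Without controls 1 and 3, on the deposited scale, it was -0.22 (limma adjusted p = 0.217). With the length trend removed and controls 1 and 3 and 48 h library 1 left out, a setting chosen after seeing the data, hcp-3 (-0.23, limma adjusted p = 0.00967) and hcp-4 (-0.15, limma adjusted p = 0.00746) were called lower, as were 18.7% of genes. There air-2 (0.13, limma adjusted p = 0.0282) was called higher, as were 17.4% of genes. Over all 20 alternatives run for this comparison hcp-3 was called lower in 5 and higher in 0, with log2 fold changes of -0.32 to 0.031 and adjusted p values of 0.00138 to 0.997. Those 5 are the settings above that change the scaling between libraries: centring, edgeR, DESeq2, and removal of the length trend with all or fewer libraries. The alternatives that kept the deposited scale gave 0 calls of hcp-3.

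Within the first table, 2 h against control, 0 of the 10 genes passed, and neither did any other gene tested (limma, 0.0% of 7684; 429 at an unadjusted p under 0.05; edgeR 0, DESeq2 29). All 10 log2 fold changes were above 0, from 0.10 ± 0.15 for hcp-3 to 0.62 ± 0.41 for hcp-1 (SE). Their median was 0.43 against 0.24 for all genes, of which 87.8% were above 0. Without controls 1 and 3 their median was 0.00059 with 5 of 10 above 0, and after median centring it was 0.14 with 8 of 10 above 0. The gene with the smallest p was knl-3. It averaged 89.1 ± 4.22 CPM at 2 h (SD, n = 2) and 65.8 ± 12.7 CPM in controls (SD, n = 4), and limma gave 0.45 (SE 0.19, adjusted p = 0.520). Both 2 h libraries lay above all controls for knl-3 and air-2, as they did for 17.8% of genes tested, while 0 of the 10 genes lay wholly below, as did 0.976%. For knl-3 the 2 h libraries stayed above the controls after centring (86.01 and 77.6 CPM against at most 76.2 CPM, as for 4.66% of genes) and with the length trend removed (86.2 and 80.6 CPM against at most 74.4 CPM, as for 7.75%). For air-2 they did not: after centring its 2 h libraries were 64.0 and 62.8 CPM, between the controls at 57.96 and 73.3 CPM. After centring hcp-3 lay wholly below the controls, at 50.2 and 49.5 CPM against at least 52.3 CPM, as did 7.56% of genes; its fold was -0.19 (limma adjusted p = 0.789).

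From 2 h to 48 h, 0 of the 10 genes passed in limma, against 2.85% of the 7684 genes tested (914 at an unadjusted p under 0.05; edgeR and DESeq2 called 0 of the 10 as well). The folds ran from -0.18 for knl-3 to 0.071 for air-2 (log2), with a median of -0.07 and limma adjusted p = 0.999 for each. The 48 h libraries lay wholly above those at 2 h for air-2, as for 12.5% of genes, and wholly below for hcp-3 and knl-3, as for 14.8% of genes. Median centring left these genes apart, and the share over all genes after centring is not given. With the length trend removed hcp-3 overlapped, at 43.5 to 50.6 CPM at 48 h and 50.1 and 52.9 CPM at 2 h. On that scale air-2 and hcp-1 lay above and knl-3 and hcp-4 below. The share over all genes is not given there either, so these separations are a description only. Intervals were wide for the long genes, reaching from -0.97 to 0.83 for hcp-1 on the deposited scale. SEs of the 10 genes were 0.14 to 0.41 there and 0.057 to 0.079 with the length trend removed.

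From 2 h to 4 h, in the second table, limma called 0 of the 10 genes, where 0.384% of 7301 genes were called (1133 at an unadjusted p under 0.05; edgeR and DESeq2 also called 0 of the 10). hcp-3 had the smallest p. It averaged 42.2 ± 1.30 CPM at 4 h (SD, n = 4) and 51.3 ± 0.995 CPM at 2 h (SD, n = 2). The limma log2 fold change was -0.28 (SE 0.072, adjusted p = 0.143). That fold change was at percentile 8.18 of all genes tested. The sign held in all 13 alternatives, from -0.30 to -0.20, with adjusted p values of 0.00358 to 0.821. It passed in 1 of them, a fit with the replicate number as a block, in which 4.94% of genes were called lower. Only numbers 3 and 4 are present at both times in that table, so the blocked contrast rests on those libraries alone. The next lowest was hcp-1 at -0.15 ± 0.082 (SE, limma adjusted p = 0.379), and the other 8 genes lay between -0.10 for hcp-4 and 0.022 for knl-3. All 4 h libraries were below the 2 h pair for hcp-3, hcp-1 and air-2, as for 24.0% of genes, and 0 of the 10 genes lay wholly above, as did 6.16%. After centring, hcp-3 and hcp-1 lay wholly below, as did 14.8% of genes, and knl-2, ndc-80, hcp-2 and bub-1 lay wholly above, as did 18% (1317 of the 7301). The median of the 10 was -0.04 on the deposited scale, against -0.07 for all genes.

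**Figure D3:**
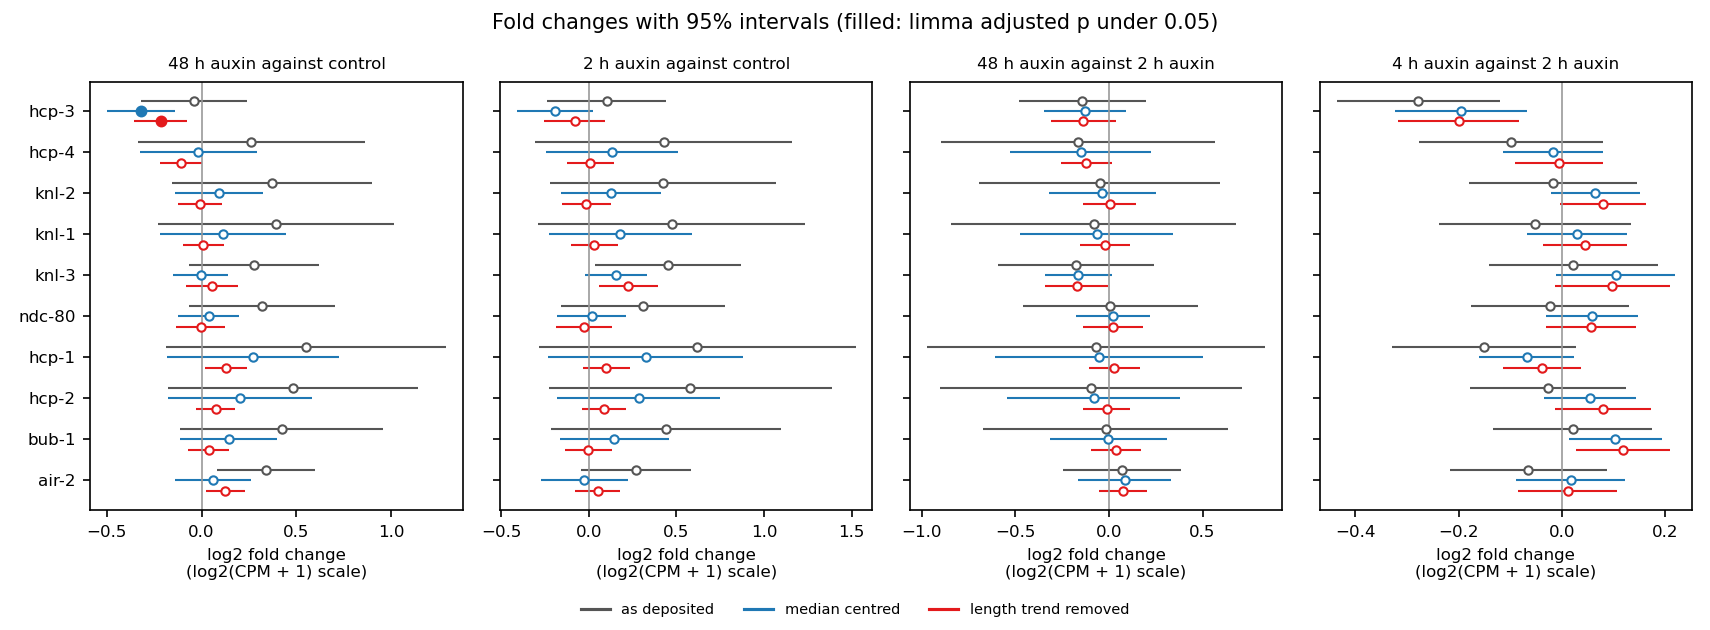
Log2 fold change of each of the 10 genes with its 95% interval from limma in the 4 comparisons, on the deposited scale (grey), after median centring (blue) and with the length trend removed (red); filled points have an adjusted p under 0.05. The filled points are those of hcp-3 at 48 h against control (-0.32 and -0.22), and the deposited scale has the widest intervals for the long genes hcp-1 and hcp-2.

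Ratios within a library are free of its depth and of any scaling common to all genes. The pairs shown were chosen after their values had been seen, and no test was run on them. air-2 is close to hcp-3 in length. On the deposited scale mean air-2 was 57.5 CPM in controls and 72.7 CPM at 48 h, and mean hcp-3 was 51.0 and 49.3 CPM. After median centring these means were 64.8 and 67.5 CPM for air-2 and 57.3 and 45.6 CPM for hcp-3. A lower ratio therefore does not tell a fall of hcp-3 from a rise of air-2. The ratio of hcp-3 to air-2 was 0.880, 0.901, 0.856 and 0.902 in controls, 0.785 and 0.788 in 2 h libraries 1 and 2, and 0.626, 0.704, 0.656 and 0.726 at 48 h. The 3 groups did not overlap, and controls 1 and 3, which stood apart in level, were here with the other controls. In the second table the ratio was 0.707 and 0.718 at 2 h and 0.612, 0.632, 0.611 and 0.596 at 4 h, again without overlap. The ratio of hcp-3 to knl-3 was 0.781 ± 0.047 in controls and 0.626 ± 0.037 at 48 h (SD, n = 4 each), with 0.584 and 0.638 in 2 h libraries 1 and 2. It was 0.471 ± 0.016 (SD, n = 4) at 4 h, against 0.581 and 0.584 at 2 h. Of the ratios of hcp-3 to the 9 other members, 3 lay wholly below controls at 48 h. At 2 h 2 of the 9 lay wholly below controls, and the remaining ratios overlapped in these comparisons. From 2 h to 4 h all 9 lay wholly below. The share of such ratios over all genes was not computed. All 9 ratios share hcp-3 as numerator, and hcp-3 itself lay below the 2 h pair at 4 h, as did 24.0% of genes. The 9 are therefore not separate observations. cpar-1 relative to hcp-3 was 0.152 ± 0.010 in controls, 0.186 and 0.189 at 2 h and 0.245 ± 0.025 at 48 h (SD, n = 4 each), without overlap. In the second table it was 0.163 and 0.164 at 2 h and 0.189 ± 0.018 (SD, n = 4) at 4 h. The ratio of the paralogs hcp-1 and hcp-2 was steadier at 1.36 ± 0.083 in controls and 1.43 ± 0.058 at 48 h, and it was 1.18 ± 0.045 at 4 h (SD, n = 4 each) against 1.27 and 1.30 at 2 h in the same table.

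**Figure D4:**
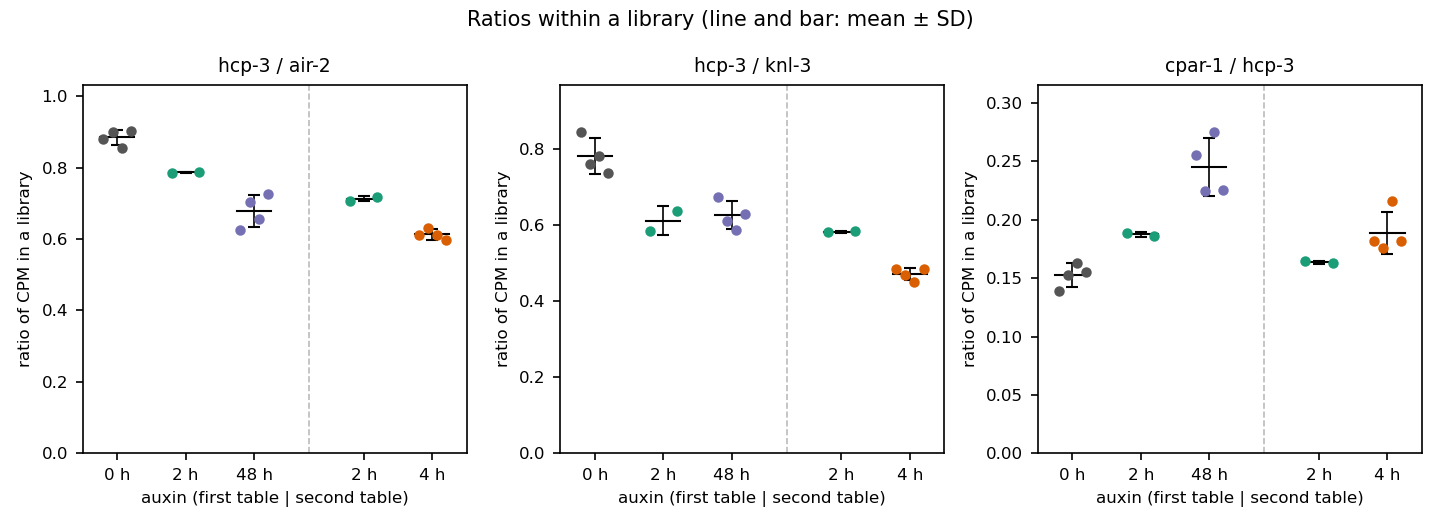
Ratio of CPM within each library for hcp-3 over air-2, hcp-3 over knl-3 and cpar-1 over hcp-3, by hours of auxin, with mean and SD; the dashed line parts the tables. hcp-3 over air-2 was 0.856 to 0.902 in controls and 0.626 to 0.726 at 48 h, and among second-table libraries it was 0.707 and 0.718 at 2 h and 0.596 to 0.632 at 4 h.

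Levels of different genes were compared per length, as CPM per kb of exonic length. bub-1 had the highest mean in every group. At 4 h it was 111 ± 5.86 CPM per kb (SD, n = 4), with no overlap with knl-3, the next at 72.8 ± 4.34. From knl-3 down to air-2 (57.8 ± 2.05) the libraries of each pair of neighbours overlapped at 4 h. hcp-3 was last at 41.6 ± 1.28 CPM per kb, with no overlap with air-2. The order from the top at 48 h was bub-1 (108 ± 17.0), hcp-1, knl-1, hcp-4, knl-3, knl-2, ndc-80, air-2, hcp-2 and hcp-3 (48.6 ± 2.98, SD, n = 4 each), and bub-1 and hcp-1 were the only neighbours without overlap. In controls all neighbours overlapped, from bub-1 at 83.7 ± 28.6 to hcp-2 at 41.5 ± 17.8 CPM per kb (SD, n = 4), and hcp-3 was in place 7 at 50.3 ± 7.41 CPM per kb. At 2 h bub-1 was highest and hcp-3 lowest in both tables, with hcp-3 at 53.6 ± 0.819 and 50.6 ± 0.981 CPM per kb (SD, n = 2 each).

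**Figure D5:**
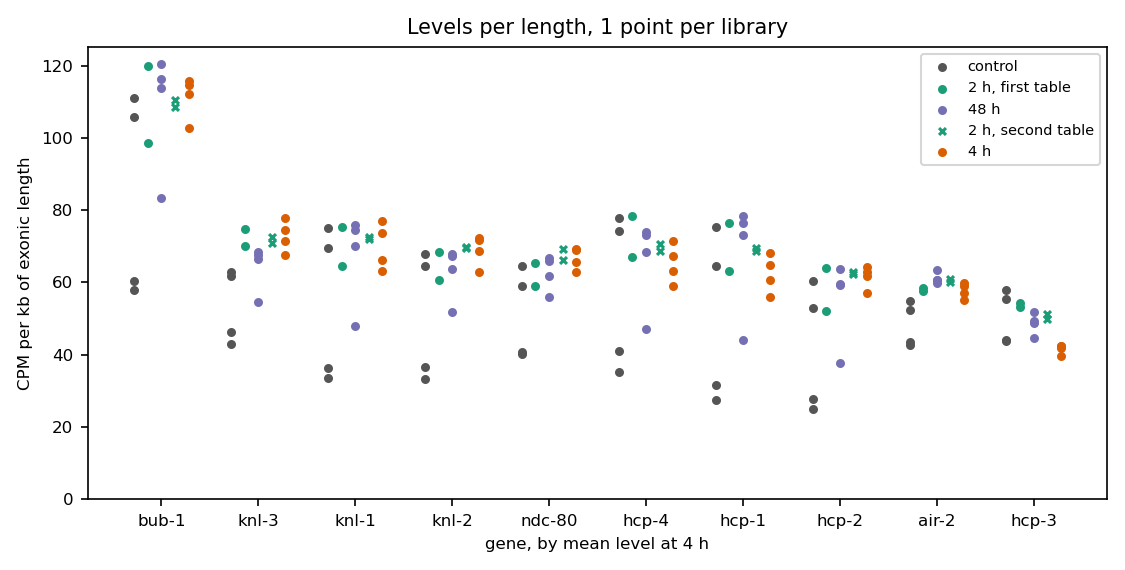
CPM per kb of exonic length of the 10 genes, ordered by their mean at 4 h, 1 point per library and 1 colour per group, with crosses for the 2 h libraries of the second table. bub-1 stands highest (111 ± 5.86 at 4 h), the middle genes overlap, and hcp-3 is lowest at 4 h (41.6 ± 1.28).

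Another 32 genes of the kinetochore, the spindle checkpoint and the chromosomal passenger complex were tested alongside. At 48 h against control 1 of the 32 rose and 0 fell in limma, where 7.34% of all genes were called higher and 2.71% lower, with a median log2 fold change of 0.24, the same as for all genes. The gene that rose was cpar-1, from 7.78 ± 1.29 to 12.04 ± 1.07 CPM (SD, n = 4 each), by 0.58 in log2 (SE 0.12, adjusted p = 0.0153 in limma). It passed in 16 of 20 alternatives, and missed after median centring (adjusted p = 0.0712), without controls 1 and 3 (0.0512), without control 3 (0.0521) and without 48 h library 3 (0.0567), all in limma. In the other 3 comparisons 0 of the 32 passed, against 0.0% of all genes at 2 h, 2.85% from 2 h to 48 h and 0.384% from 2 h to 4 h. The member with the smallest p from 2 h to 48 h was mis-12, which names the complex that holds KNL-3, at -0.27 ± 0.13 (SE, limma adjusted p = 0.454). From 2 h to 4 h it was air-1, the worm Aurora A, with 69.6 ± 4.08 CPM at 4 h (SD, n = 4), 85.5 ± 0.186 CPM at 2 h (SD, n = 2) and a limma log2 fold change of -0.30 (SE 0.075, adjusted p = 0.131). At 2 h against control it was cpar-1 (0.36 ± 0.15, limma adjusted p = 0.520).

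Scaling changed these calls too. After median centring gsp-2, a PP1 phosphatase (-0.31 ± 0.072, limma adjusted p = 0.0221), and mis-12 (-0.46 ± 0.12, limma adjusted p = 0.0306) were lower at 48 h than in controls, as were 7.14% of all genes. With the length trend removed 3 of the 32 were higher (cpar-1, kbp-4 and sep-1) and 3 lower (gsp-2, mis-12 and rod-1), where 8.3% of all genes were higher and 11.6% lower. From 2 h to 48 h on that scale sep-1 was called higher and gsp-2 and mis-12 lower, where 237 of 7666 genes were higher and 390 lower. DESeq2 called gsp-2 lower from 2 h to 48 h, as it did 363 of 7684 genes. From 2 h to 4 h air-1 was lower both after centring (-0.21 ± 0.046, limma adjusted p = 0.0400, with 1.0% of all genes lower) and with the length trend removed (-0.22 ± 0.043, limma adjusted p = 0.0191, with 1.65% lower). gsp-2, kbp-4, sep-1 and rod-1 are named after their values were seen.

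air-2, the member with the smallest p at 48 h on the deposited scale, was compared with 7683 other genes over the 10 libraries of the first table, after median centring. The most similar were rheb-1 (Pearson r = 0.98), vps-60 (0.98) and R186.3 (0.97), at 19.6 to 48.9 CPM. Among the 10 genes themselves, in the first table, hcp-1 and hcp-2 varied together most closely (Pearson r = 0.99 on that scale and 0.83 with the length trend removed). hcp-4 and air-2 varied in opposite directions (-0.92 and -0.79). Values differed over the 6 libraries of the second table, where hcp-1 and hcp-2 gave -0.55 and -0.68, and hcp-4 and air-2 gave -0.42 and 0.34. The libraries, their scaling and the length trend are common to all of these values, so they are given as a description.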

How the data were processed

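The authors deposited, per the file headers, a CPM signal per gene in 2 tables. The submitters' processing notes name limma, edgeR, featureCounts 1.4.5, Subread and STAR 2.0.4b. The build, the annotation, the strand setting and the treatment of multiply matching reads are each not given in the sources used here. Lines listed more than once were kept once (46998 lines, 46536 genes). All nonzero values were whole multiples of 1 read (100% of values, tolerance 0.1 read), so reads were recovered. Gene names came from the first table, matched by gene ID, because the second holds dates in place of some names. Positions and lengths are those of Ensembl for WBcel235, which held 46363 of the gene IDs.

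limma 3.58.1 (R 4.3.3, trend) was run on log2(CPM + 1) for genes of at least 1 CPM in at least 2 libraries of a table, 2-sided, with Benjamini-Hochberg adjustment over all genes tested and a threshold of 0.05. Fold changes on that scale understate the change of low genes. All libraries of a table shared 1 fit. Alternatives were a pseudocount of 0.5, no filter, centring on the median of genes of at least 10 CPM, removal of each library's loess trend (span 0.5) on log2 exonic length, a replicate block, edgeR 4.0.16 and DESeq2 1.42.0 on recovered reads, and omission of libraries. The fits were tested on simulated libraries that shared the same profile apart from planted changes. Those had no length trend, no difference in ribosomal RNA and no libraries that stood apart. That test therefore does not show how the fits behave with these features. The series states 4 biological replicates per group but not how each was collected, so p-values measure only the spread between libraries. A count of 0 allows 3 reads, 0.0885 to 0.169 CPM, for counting error only. It is not stated whether the 2 tables are batches.

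The genes, lists and tests were chosen with earlier results of these data known. Named genes are the 10 members, lst-1, sygl-1 and lag-1 once, from the 32 others those called or with the smallest p in each comparison and cpar-1, and the 3 genes closest to the member with the smallest p at 48 h. Sequences were not used here.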

Additional observations from a re-analysis of the deposited data

Results flagged for a closer look

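In 30 groups of 4 libraries (each of the 10 genes in each of 3 groups), the gap of the highest or lowest library to its neighbour, over the range of the group, was set against Dixon's 95% critical value for 4 values. Chance passes about 1 group in 20. There were 2 such groups, both at 48 h and both for library 1. knl-3 was 66.9 CPM in 48 h library 1, against 81.8 to 84.1 CPM in the other 3 (gap over range 0.866). hcp-1 was 206 CPM in the same library, against 341 to 365 CPM in the others (0.844). That library held 44.9% ribosomal RNA, and long transcripts were low in it; the part of either in these values was not tested. With the length trend removed knl-3 was 66.2 CPM in it against 74.7 to 77.8 CPM, and hcp-1 was 274 CPM against 279 to 281 CPM.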

How the results depend on the processing

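Of the 730 log2 fold changes recomputed under another setting, 625 kept their sign and their side of the threshold, 98 changed sign, and 7 kept their sign and passed where the reported fit did not. Of those that changed sign 1 also passed (hcp-4 at 48 h against control, with the length trend removed and 3 libraries left out), which makes 8 calls in all. The reported folds were not called, and the cause of the changes in sign was not tested. A pseudocount of 0.5 and the omission of the filter turned no sign. Median centring turned the sign of hcp-4 (-0.018) and knl-3 (-0.0052) for 48 h against control, hcp-3 (-0.19) and air-2 (-0.025) for 2 h against control, and knl-2 (0.065), knl-1 (0.030), ndc-80 (0.059), hcp-2 (0.054) and air-2 (0.017) for 4 h against 2 h. Removal of the length trend turned hcp-4 (-0.11), knl-2 (-0.010) and ndc-80 (-0.0054) for 48 h against control, hcp-3 (-0.080), knl-2 (-0.014), ndc-80 (-0.028) and bub-1 (-0.0024) for 2 h against control, knl-2 (0.0035), hcp-1 (0.028) and bub-1 (0.040) for 48 h against 2 h, and knl-2 (0.079), knl-1 (0.045), ndc-80 (0.056), hcp-2 (0.080) and air-2 (0.011) for 4 h against 2 h. edgeR turned hcp-4 (-0.019) for 48 h against control, hcp-3 (-0.18) and air-2 (-0.015) for 2 h against control, and knl-2 (0.060), knl-1 (0.025), ndc-80 (0.054), hcp-2 (0.050) and air-2 (0.011) for 4 h against 2 h. DESeq2 turned hcp-4 (-0.017) for 48 h against control, hcp-3 (-0.18) and air-2 (-0.0089) for 2 h against control, and knl-2 (0.061), knl-1 (0.026), ndc-80 (0.054), hcp-2 (0.050) and air-2 (0.012) for 4 h against 2 h. Leaving out controls 1 and 3 turned hcp-4 (-0.23), knl-2 (-0.086), knl-1 (-0.13), hcp-1 (-0.072), hcp-2 (-0.065) and bub-1 (-0.014) for 48 h against control, and hcp-3 (-0.078), hcp-4 (-0.068), knl-2 (-0.036), knl-1 (-0.050) and hcp-1 (-0.0027) for 2 h against control. Leaving out 48 h library 1 as well turned hcp-4 (-0.083) for 48 h against control, hcp-3 (-0.078), hcp-4 (-0.068), knl-2 (-0.036), knl-1 (-0.050) and hcp-1 (-0.0027) for 2 h against control, and knl-2 (0.039), knl-1 (0.072), hcp-1 (0.13), hcp-2 (0.075) and bub-1 (0.10) for 48 h against 2 h. Leaving out these 3 and removing the length trend, a setting chosen after seeing the data, turned hcp-4 (-0.15), knl-2 (-0.056), knl-1 (-0.035) and ndc-80 (-0.00057) for 48 h against control, hcp-3 (-0.13), hcp-4 (-0.050), knl-2 (-0.013) and knl-1 (-0.025) for 2 h against control, and ndc-80 (-0.0045), hcp-1 (0.034) and bub-1 (0.021) for 48 h against 2 h. Over all settings that leave out 1 or more libraries on the deposited scale, the ranges that held both signs with 1 library left out were those of hcp-3 (-0.22 to 0.031) for 48 h against control, knl-2 (-0.13 to 0.039), knl-1 (-0.19 to 0.072), ndc-80 (-0.064 to 0.081), hcp-1 (-0.21 to 0.13), hcp-2 (-0.24 to 0.075) and bub-1 (-0.16 to 0.12) for 48 h against 2 h, and knl-2 (-0.041 to 0.027), knl-3 (-0.0098 to 0.056), ndc-80 (-0.056 to 0.0089) and hcp-2 (-0.049 to 0.0066) for 4 h against 2 h. With more than 1 left out the same held of hcp-4 (-0.23 to 0.44), knl-2 (-0.086 to 0.54), knl-1 (-0.13 to 0.59), hcp-1 (-0.072 to 0.79), hcp-2 (-0.065 to 0.70) and bub-1 (-0.014 to 0.58) for 48 h against control, and hcp-3 (-0.078 to 0.17), hcp-4 (-0.068 to 0.60), knl-2 (-0.036 to 0.59), knl-1 (-0.050 to 0.67) and hcp-1 (-0.0027 to 0.86) for 2 h against control.

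The 10 genes gave 0 calls in the reported fits. At 48 h against control 1 of them, hcp-3, was called with median centring, with the length trend removed, by edgeR and by DESeq2, and 3 (hcp-3, hcp-4 and air-2) with the length trend removed and 3 libraries left out. With 1 library left out at a time, 0 were called in each comparison. Over all genes, 48 h against control gave 772 calls, and 1528 with the length trend removed, 1255 by DESeq2, 1825 without controls 1 and 3 and 48 h library 1, and 2743 with both. Leaving out 1 library gave 342 to 1050 (376 without control 3, and 408, 342 and 354 without 48 h libraries 2, 3 and 4). For 2 h against control, 0 became 1 with centring, 5 with the length trend removed, 29 by DESeq2 and 26 without the 3 libraries, was 89 higher and 40 lower with the trend removed as well, and was 0 with any 1 library left out. For 48 h against 2 h, 219 became 627 with the length trend removed, 379 by edgeR, 574 by DESeq2, 380 without controls 1 and 3, 1561 without the 3 libraries and 2433 with both. Leaving out 1 library gave 39 to 281 (47 and 39 without 2 h libraries 1 and 2, and 126 to 140 without 48 h library 2, 3 or 4). For 4 h against 2 h, 28 became 9 without the filter, 165 with centring, 276 with the length trend removed, 233 by edgeR and 338 by DESeq2. Leaving out 1 library gave 4 to 237 (4 and 6 without 2 h libraries 3 and 4, and 237 and 10 without 4 h libraries 3 and 4). Where 1 library remained at 2 h, it was assumed to vary like the other groups.

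Whether the replicate numbers pair the samples was read from the correlation of deviations between same-numbered libraries. It was 0.69, 0.43, -0.42 and 0.58 for control and 48 h, 0.38 and 0.46 for control and 2 h, 0.49 and 0.19 for 2 h and 48 h, and 0.17 and 0.025 for 2 h and 4 h. Pairing was taken only where every one of 3 or more pairs was over 0.1, which number 3 of control and 48 h was not, and 3 of those 8 libraries correlated best with their own number. With the replicate block limma called 1083 genes at 48 h against control, 0 at 2 h, 233 for 48 h against 2 h and 644 for 4 h against 2 h. Of the 10 genes it called 0 in the first table and 1 for 4 h against 2 h, hcp-3 (-0.26, limma adjusted p = 0.00358). The blocked contrast of 4 h and 2 h rests on libraries numbered 3 and 4, the only numbers at both times. With the block knl-2 (0.050), knl-1 (0.057), ndc-80 (0.030) and hcp-2 (0.021) changed sign for 4 h against 2 h.

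Limits are the 2 libraries at 2 h in each table, the lack of a shared table for 4 h and control, and the 3 libraries that stood apart, 2 of them controls. Counting error was at most 3.55% for these genes, and the spread between libraries was larger for most of them.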
